A study of Mus musculus with 12 samples.

Results

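The comparison described here set the dorsal meninges of injured young mice against those of sham-treated young mice, and it took 6 of the 12 libraries of the series, 3 named Young TBI and 3 named Young Sham, by their labels. Both groups were male wild-type C57BL/6 mice (C57BL/6J by the methods), 10 weeks old, and tissue was taken 1.5 months after the procedure. This was either a traumatic brain injury (TBI) of mild grade, delivered as a single hit through the closed skull at the right inferior temporal lobe, or a sham procedure, in which the anaesthetised mouse was prepared in the same way and the impactor was released too high to strike. The other 6 libraries came from male C57BL/6 mice of 20 to 24 months, 3 Aged Sham and 3 Aged TBI, and served here for the shared estimate of spread and for the test of whether the response to injury differed between ages. Whole-tissue RNA was sequenced in bulk, and each library pooled 2 mice (methods) or up to 3 (legends), so that p-values measure the spread between pooled libraries. The skullcap was taken from above the ear canal after skin and muscle had been stripped, and the point of impact lay outside the tissue that was collected.

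The meninges are the membranes between skull and brain. Their outer sheet, the dura, holds fibroblasts embedded in collagen, blood and lymphatic vessels, nerves, bone-lining cells and resident immune cells, chiefly macrophages and mast cells, and the thinner arachnoid and pia lie beneath it. A blow to the head is known to set off an early inflammatory and wound-healing programme in this tissue, and the libraries described here address how much of any such programme was still measurable 1.5 months later. In bulk RNA, fewer cells of a type and less RNA per cell cannot be told apart.

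The libraries held 8092374 (Young TBI 3) to 14766075 counts (Young Sham 2), a 1.82-fold range, with 10734413 and 12216860 for Young Sham 1 and 3 and 10672779 and 12779285 for Young TBI 1 and 2. Levels are given as CPM (counts scaled to library size, with TMM factors), which compare one gene between libraries but not one gene with another. Markers of dural fibroblasts were high in every library, with Alpl at 845, 753 and 1038 CPM in Young Sham and 985, 989 and 895 CPM in Young TBI. Several libraries stood apart before any comparison. Young TBI 3 held skeletal muscle RNA, with 20 muscle genes summing to 752 CPM against 90.8 to 149 CPM in the other 5 young libraries. Young Sham 2 held 276 CPM of 17 keratinocyte and hair follicle genes against 38.8 to 65.4 CPM elsewhere, the highest sum of immediate early genes and, for the antibody gene Ighg2c, 164 CPM against 5.90 to 10.5 CPM. Young Sham 1 and Young TBI 2 carried the most RNA of olfactory tissue, and Young Sham 1 and Young TBI 1 the most of neutrophil granule genes. The choroid plexus genes summed to between 4460 CPM in Young TBI 2 and 10180 CPM in Young Sham 1.

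**Figure D1:**
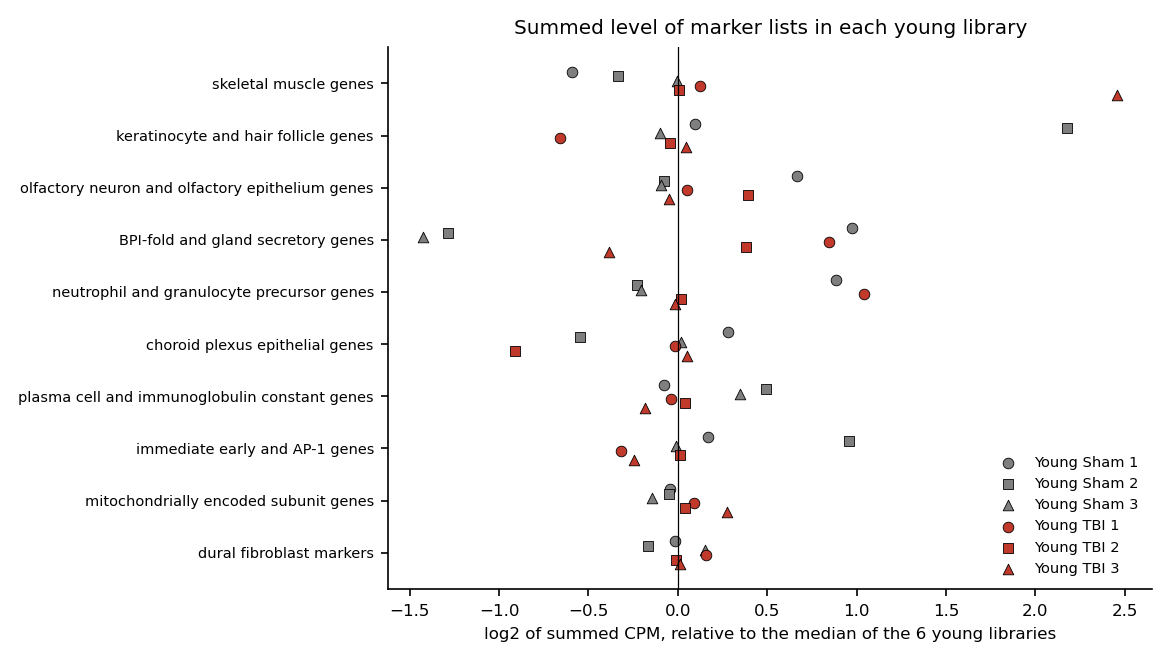
Summed CPM of 10 gene lists in each of the 6 young libraries, as log2 relative to the median of the 6 (x axis), with 1 symbol per library, grey for Young Sham and red for Young TBI. Skeletal muscle genes stand out in Young TBI 3 (752 CPM) and keratinocyte genes in Young Sham 2 (276 CPM), while the mitochondrially encoded genes of all 3 Young TBI libraries lie above those of all 3 Young Sham libraries.

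Few genes separated injured from sham meninges in young mice. Of 18238 genes tested with edgeR's quasi-likelihood test, 1 passed an adjusted p under 0.1 (0.00548% of genes), and it was Bpifb4, a secreted lipid-binding protein of the BPI-fold family, which rose 18.96-fold. Before adjustment 757 genes (4.15%) had a p under 0.05, a share below the threshold itself, with 321 higher (1.76%) and 436 lower (2.39%) in Young TBI. All 3 Young TBI libraries lay above all 3 Young Sham libraries for 5.7% of genes and below them for 5.82%. The median absolute log2 fold change was 0.09, with a median log2 fold change of 0.00 over all genes. Over the 500 most variable genes the 2 groups took 22.6% of the variance of the 6 libraries (exact permutation test over 20 relabellings, p = 0.3, where 0.1 is the smallest p possible).

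The first principal component (29.4% of variance) ran from olfactory genes, high in Young Sham 1, to muscle genes, high in Young TBI 3, and did not part the groups. The second (24.5%) placed the 3 Young Sham libraries between -23.0 and -2.17 and the 3 Young TBI libraries between 8.84 and 12.1. At its low end were the keratin genes Krt14 and Krt5 and antibody segments, at its high end the muscle myosin Myh4, Bpifb4, Gpx6, Bpifb6 and olfactory enzymes. The second component therefore mixed the genes of the libraries that stood apart with the secretory genes described below.

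The precision of the data bounds what could have been missed. Of 16812 genes with at least 1 CPM in the higher young group, 89.8% had a 95% interval of the fold change that lay within 2-fold either way, and 72.6% one that lay within 1.5-fold. DESeq2, the tool of the study, called more genes on the same counts. It called 8 over the 4 groups (0.0223% of 35911 genes with a p-value, 4 or 0.0111% in each direction) and 22 over the 6 young libraries alone (0.0676% of 32552, 9 or 0.0276% higher and 13 or 0.0399% lower), and 7 genes were common to both. The union of the calls of the 3 fits is 23 genes, 9 higher and 14 lower after injury. Apart from Bpifb4 they were named after their values were seen, as were the members of gene lists singled out below. With 1 library left out at a time, DESeq2 over the 4 groups called 3 of the 23 in 12 of 12 fits (Bpifb4, Bpifb6 and Kcne4) and the other 20 in 0 to 8. DESeq2 over the young libraries called 5 in 6 of 6 fits (Dnajb1, Neat1, Amotl2, Jun and Podxl) and the other 18 in 0 to 5. Without Young TBI 2 this fit gave no adjusted p for some genes, which counts here as not called. Bpifb4, Bpifb6, Gpx6, Ccl12, Dcc, Hlx, Hspa1b and Ighg2b were among these. The edgeR test over the 6 young libraries alone called Bpifb4, Bpifb6 and Vmo1 (adjusted p = 0.0473, 0.0575 and 0.0795). All 23 had groups that did not overlap (against 5.7% of all genes above and 5.82% below). Of them, 22 had an unadjusted edgeR p under 0.05 (against 4.15% of all genes), and the exception was Ighg2b. The 23 were selected from these same counts, so both results largely follow from the selection and are no independent support.

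**Figure D2:**
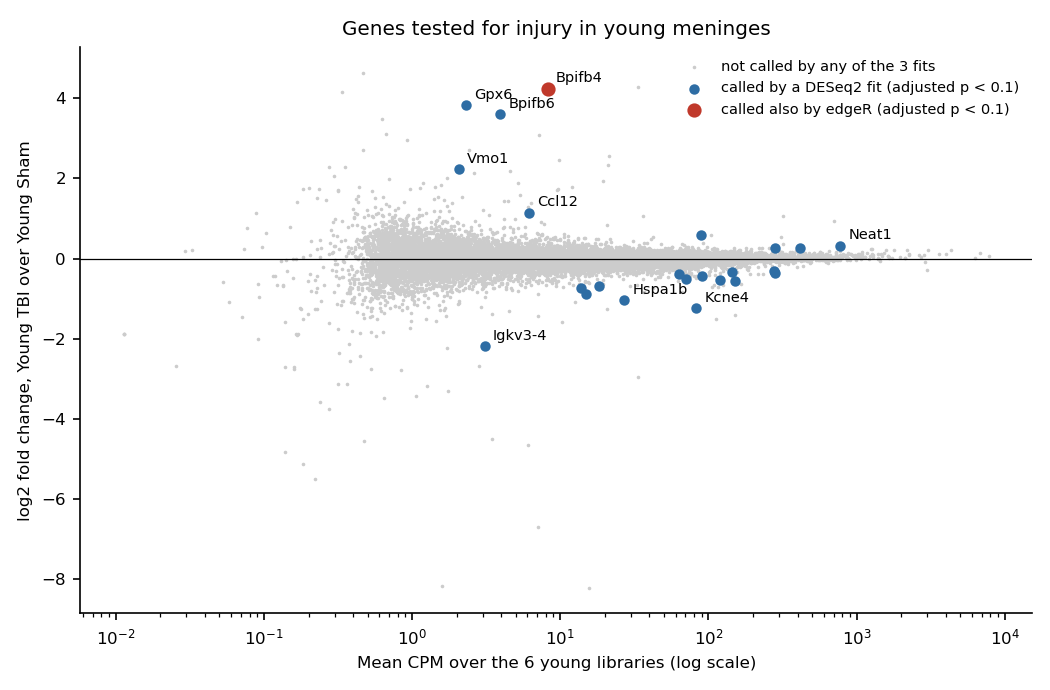
Each point is 1 of the genes tested, with its mean CPM over the 6 young libraries (x axis, log scale) and its log2 fold change in Young TBI over Young Sham (y axis). Red marks the 1 gene called by edgeR, Bpifb4, and blue the genes called by DESeq2 alone. Most abundant genes lie close to 0, and most of the large differences are among genes of low level.

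Bpifb4, the gene called by edgeR and by both DESeq2 fits, belongs to a group of secretory genes. Proteins of the BPI fold (bactericidal/permeability-increasing protein and its relatives) bind lipids and bacterial lipopolysaccharide and are known chiefly from the secretions of nose, mouth and airway glands. Their genes form a tandem cluster on mouse chromosome 2, of which 13 annotated members lie between 153875045 and 154320646 (GRCm38). Of these, 4 had enough counts to be tested and 3 had no count in any young library. Bpifb4 (chromosome 2, 153938212 to 153964101) and Bpifb6 (153900388 to 153912795), both on the plus strand, had the highest log2 fold changes among the 4. The 150 bases before the RefSeq start of each (GRCm38.p6) are shown because these are the leading genes. Capitals mark a CCAAT box (CCAAT, searched on both strands and found here on the minus strand), which 24.5% of 32851 promoters hold in the same window.
Bpifb4, chr2:153940712-153940861, plus strand: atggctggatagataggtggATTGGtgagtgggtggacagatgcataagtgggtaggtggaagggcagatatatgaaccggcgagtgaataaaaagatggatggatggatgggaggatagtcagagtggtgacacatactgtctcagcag
Bpifb6, chr2:153900238-153900387, plus strand: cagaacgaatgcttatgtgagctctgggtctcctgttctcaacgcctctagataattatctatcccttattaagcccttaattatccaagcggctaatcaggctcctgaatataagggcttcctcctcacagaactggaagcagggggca
Neither window held a TATA box (TATAAA), the AP-1 site TGANTCA or a heat shock element, and that of Bpifb6 held no CCAAT box. The RefSeq start of Bpifb4 lies inside the gene as the GENCODE annotation draws it.

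Bpifb4 stood at 0.572, 1.43 and 0.337 CPM in Young Sham (libraries 1 to 3, as throughout) and at 22.96, 13.1 and 10.8 CPM in Young TBI. Every Young TBI library lay well above every Young Sham library. The means were 0.778 ± 0.573 and 15.6 ± 6.45 CPM (SD, n = 3 libraries each), a log2 fold change of 4.25 ± 0.52 (SE) with an adjusted p of 0.0558 in edgeR. The adjusted p was 1.32e-12 with DESeq2 over the 4 groups and 3.32e-07 with DESeq2 over the young libraries. With 1 library left out at a time, edgeR called Bpifb4 in 6 of 12 fits, and the call was lost without Young Sham 1 or 3, without any of Young TBI 1 to 3 and without Aged TBI 2 (adjusted p between 0.101 and 0.678 in those fits), while the log2 fold change stayed between 3.88 and 5.10. DESeq2 called it in 12 of 12 such fits over the 4 groups and in 5 of 6 over the young libraries. The remaining young fit, without Young TBI 2, gave Bpifb4 no adjusted p. The counts behind these levels were 6, 21 and 4 in Young Sham and 237, 164 and 85 in Young TBI. In the aged libraries the mean of Bpifb4 lay between those of the young groups, with 1.80, 2.99 and 1.46 CPM in Aged Sham and 3.66, 3.29 and 1.22 CPM in Aged TBI.

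Bpifb6, the neighbouring gene of the same family, stood at 0.381, 0.815 and 0.505 CPM in Young Sham and at 10.4, 4.38 and 7.15 CPM in Young TBI. The groups were again separate, with a log2 fold change of 3.61 ± 0.54 and an adjusted p of 0.189 in edgeR. DESeq2 called it in both fits (adjusted p = 5.84e-06 and 1.21e-10), and with 1 library left out in 12 of 12 fits over the 4 groups and 5 of 6 over the young libraries. Bpifb3, which lies between the 2 genes, had 1.24, 0.679 and 0.084 CPM in Young Sham and 3.68, 7.81 and 1.02 CPM in Young TBI, so that its groups overlapped. Bpifb1, farther along the cluster, had 4.96, 5.09 and 3.70 CPM against 5.62, 4.06 and 6.63 CPM, with a log2 fold change of 0.23 ± 0.26. Of the 4 members of the cluster that were tested, 2 thus had groups that did not overlap (against 5.7% of all genes above and 5.82% below). These were Bpifb4 and Bpifb6, the called genes for which the cluster was read, so the count largely follows from their selection.

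Of the 13 genes tested in a list of 28 BPI-fold, gland and nasal mucosa genes, 5 had separate groups, which were Bpifb4, Bpifb6 and the 3 that follow. Gpx6, a glutathione peroxidase known from olfactory tissue, stood at 0.191, 0.543 and 0.084 CPM in Young Sham and 5.81, 1.75 and 5.49 CPM in Young TBI (log2 fold change 3.83 ± 0.73). Vmo1, which encodes vitelline membrane outer layer protein 1, a secreted protein, stood at 0.763, 0.815 and 0.589 CPM against 3.39, 4.14 and 2.68 CPM (log2 fold change 2.23 ± 0.51). Both were called by DESeq2 over the young libraries (adjusted p = 1.05e-05 and 0.00722) and, with 1 of those libraries left out, each in 5 of 6 fits. In edgeR over the 12 libraries their adjusted p was 0.534 and 1. Muc5b, a gel-forming mucin of airway glands, had 0.191, 0.204 and 0 CPM in Young Sham and 1.74, 1.35 and 0.510 CPM in Young TBI, with an unadjusted edgeR p of 0.0034 and an adjusted p of 1. A count of 0 in Young Sham 3 allows up to 0.253 CPM, counting error only. Gpx6 and Muc5b did not pass the filter on low counts without the Young TBI libraries, so their place among the genes tested already required them to be high there.

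Of the 13 tested, 10 were above 0, 6 had an unadjusted p under 0.05, all higher, and 5 had every Young TBI library above every Young Sham library (against 49%, 1.76% and 5.7% of all genes). The filter was passed by 11 of the 13 without the Young TBI libraries. The list was written with earlier results of these data known. It holds the called genes Bpifb4, Bpifb6, Gpx6 and Vmo1, so the counts above are no independent support. The median log2 fold change was 1.18, against 0.00 over all genes, and ran from 0.64 without Young Sham 3 to 3.39 without Young Sham 1. The summed level of the 28 genes did not separate the groups, at 192, 40.1 and 36.4 CPM in Young Sham and 176, 128 and 75.0 CPM in Young TBI. Young Sham 1 had the highest sum, and Bpifb4, Bpifb6, Gpx6, Vmo1 and Muc5b were low there. The other members of some abundance had overlapping groups. Ltf, the lactoferrin of secretions and neutrophils, stood at 92.4, 24.6 and 26.8 CPM in Young Sham and 105, 31.6 and 26.8 CPM in Young TBI. Cyp2a5, an enzyme of the nasal mucosa, stood at 46.7, 0.815 and 0.842 CPM against 8.43, 34.6 and 8.04 CPM, and the secretoglobin Scgb1c1 at 2.67, 0.272 and 0.084 CPM against 2.71, 2.63 and 0.893 CPM. The members known best as markers of nasal glands and airway secretions, the odorant-binding proteins Obp1a, Obp2a and Obp2b, the secretoglobin Scgb1a1 and the salivary protein Bpifa2, had at most 0.272 CPM in any young library. Reg3g, an antibacterial lectin, and Lyz1, a lysozyme, had overlapping groups, with log2 fold changes of -0.47 and -0.05.

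Genes of the nose were read beside these values, and the lists are not fully separate, since Gpx6, Cyp2a5 and Cyp2g1 of the list above are known from olfactory mucosa. Omp, the marker protein of mature olfactory neurons, stood at 66.0, 8.35 and 3.79 CPM in Young Sham and 22.1, 36.5 and 4.72 CPM in Young TBI. Cyp2g1, an enzyme of the olfactory mucosa, stood at 38.7, 0.136 and 0.673 CPM against 2.23, 18.7 and 1.66 CPM. Both were highest in Young Sham 1, and the groups overlapped. Bpifb4 stood at 0.572 CPM in that library. Whether olfactory or gland tissue had a part in the values of Bpifb4 was not tested. Over the 14 genes tested in the olfactory list, which holds Omp and not Cyp2g1, the median log2 fold change was -0.08, with 0 at an unadjusted p under 0.05, and the summed level was 170 to 288 CPM in Young Sham and 175 to 238 CPM in Young TBI.

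**Figure D3:**
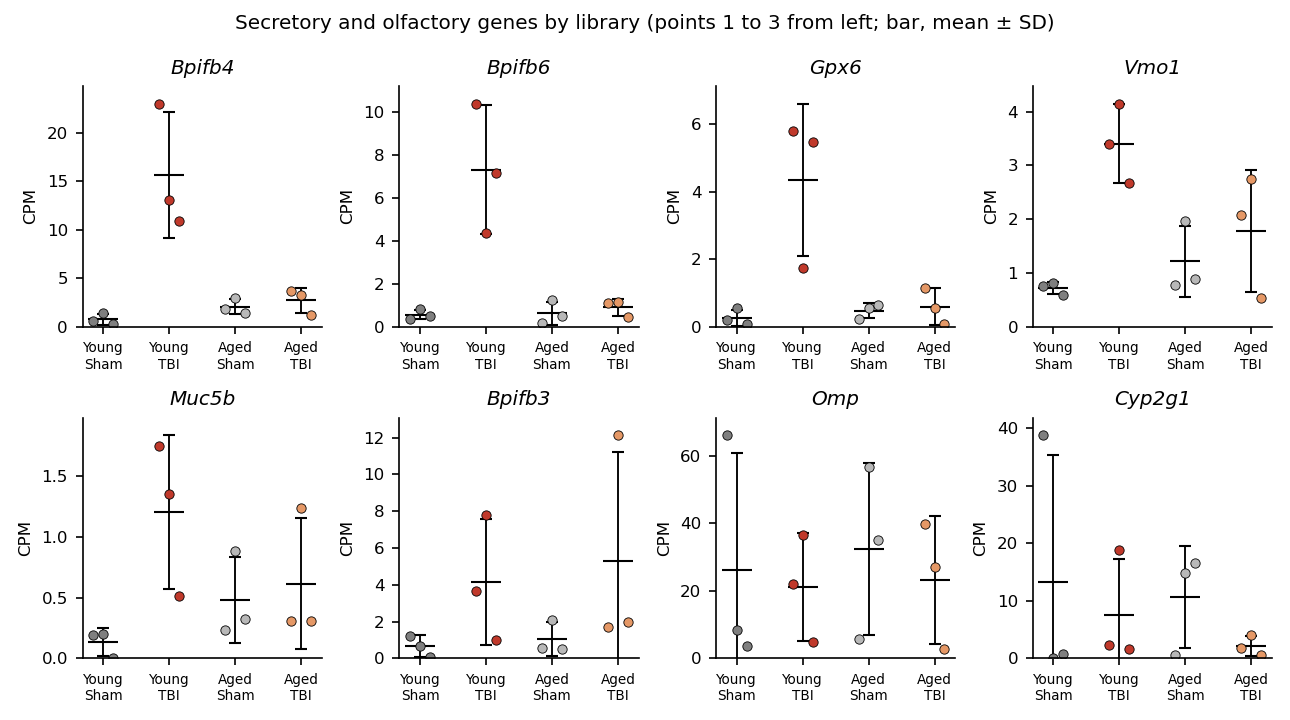
CPM (y axis, from 0, its own scale in each panel) of 6 secretory genes and 2 olfactory genes in the 12 libraries, with points for libraries 1 to 3 of each group from left to right and bars for mean ± SD, cut off at 0 where they reach below it. Bpifb4, Bpifb6, Gpx6, Vmo1 and Muc5b are higher in all 3 Young TBI than in all 3 Young Sham libraries, while Omp and Cyp2g1 are highest in Young Sham 1.

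Heat shock and early-response genes were among those with lower values after injury. Heat shock proteins of the HSP70 family and their J-domain partners refold damaged proteins, and their genes are switched on by the factor HSF1 through heat shock elements. Immediate early genes such as Fos, Jun and Egr1 encode transcription factors induced within minutes of a stimulus. The 150 bases before the RefSeq start of 3 such genes are shown (GRCm38.p6, all on the minus strand), with the heat shock element GAANNTTC in capitals. The motif or its other order, TTCNNGAA, is present in 7.73% of 32851 promoters in the same window.
Hspa1a, chr17:34972157-34972306: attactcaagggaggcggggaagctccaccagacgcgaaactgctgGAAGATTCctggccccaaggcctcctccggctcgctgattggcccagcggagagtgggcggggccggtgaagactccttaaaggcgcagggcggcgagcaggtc
Hspa1b, chr17:34959239-34959388: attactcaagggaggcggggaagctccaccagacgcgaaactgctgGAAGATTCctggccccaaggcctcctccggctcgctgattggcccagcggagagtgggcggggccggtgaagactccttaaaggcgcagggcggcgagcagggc
Jun, chr4:95052223-95052372: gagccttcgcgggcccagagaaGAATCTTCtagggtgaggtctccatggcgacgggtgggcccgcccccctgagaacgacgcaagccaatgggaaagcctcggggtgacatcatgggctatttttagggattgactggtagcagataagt
The windows of Hspa1a and Hspa1b, which are near-identical copies, are the same at 149 of 150 bases, and reads may have been split between the copies, so their separate values are uncertain. Dnajb1 has 2 RefSeq starts, and only the window before the first was read. Neither order of the element was found in that window, and the AP-1 site TGANTCA in none of these windows.

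Dnajb1, the J-domain partner of HSP70, stood at 75.4, 85.5 and 88.3 CPM in Young Sham and at 61.7, 59.4 and 52.95 CPM in Young TBI. The groups did not overlap, and the log2 fold change was -0.52 ± 0.09. DESeq2 called it in both fits (adjusted p = 0.0124 and 0.000436) and edgeR did not (adjusted p = 0.467), with 8 of 12 and 6 of 6 DESeq2 fits when 1 library was left out. Hspa1b, an inducible HSP70, stood at 39.1, 21.7 and 48.5 CPM against 17.9, 18.9 and 15.7 CPM, a log2 fold change of -1.04 ± 0.23. It was called by DESeq2 over the 4 groups (adjusted p = 0.0281) and not over the young libraries alone (adjusted p = 1), and in 7 of 12 and 1 of 6 of those fits with 1 library left out. Hspa1a had 13.8, 12.4 and 21.2 CPM against 12.1, 10.6 and 9.95 CPM, and Dnajb4, another J-domain protein, 89.3, 94.7 and 95.8 CPM against 76.7, 78.3 and 72.5 CPM.

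The chaperone list as a whole differed less. Of its 18 genes tested, 4 had an unadjusted p under 0.05, all lower (against 2.39% of all genes). In all 3 Young TBI libraries 6 lay below (against 5.82% of all genes). The list holds the called genes Dnajb1 and Hspa1b and the near-identical copy Hspa1a, so these counts are no independent support. The list median was -0.08 and ran from -0.09 to -0.03 over the alternatives. Hsph1, Hsp90aa1, Hspa8, Hspd1 and Ahsa1, which are abundant chaperones and their helpers, had log2 fold changes between -0.08 and 0.00 with overlapping groups. Serpinh1, the collagen chaperone HSP47, stood at 995, 912 and 1058 CPM against 1154, 1075 and 996 CPM, with a log2 fold change of 0.12 ± 0.11.

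Among immediate early genes, Jun, a subunit of AP-1, stood at 161, 139 and 128 CPM in Young Sham and 97.5, 102 and 93.3 CPM in Young TBI. All Young TBI values lay below all Young Sham values, with a log2 fold change of -0.54 ± 0.21, and only DESeq2 over the young libraries called it (adjusted p = 9.25e-06). Rhob, a small GTPase induced as an early gene, stood at 292, 349 and 312 CPM against 264, 244 and 231 CPM. Fos had 46.1, 79.6 and 16.1 CPM against 11.9, 42.5 and 24.2 CPM, Junb 87.1, 134 and 55.8 CPM against 58.0, 80.1 and 66.4 CPM, and Fosb 7.44, 8.96 and 3.96 CPM against 5.13, 7.73 and 3.57 CPM. These 3 genes overlapped between the groups.

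Over the 24 immediate early genes the median log2 fold change was -0.47, 1 was positive, 5 had an unadjusted p under 0.05, all lower, and 6 lay below in every Young TBI library (against 2.39% and 5.82% of all genes). Young Sham 2 held the highest levels of this list, 3063 CPM in sum against 1774 and 1566 CPM in the other Young Sham libraries and 1269 to 1594 CPM in Young TBI. Egr1 alone was at 87.6, 517 and 52.4 CPM in Young Sham and at 47.6, 110 and 93.5 CPM in Young TBI, and the orphan receptor gene Nr4a1 at 73.7, 326 and 95.7 CPM against 47.5, 83.2 and 44.3 CPM. Without Young Sham 2 the list median was -0.15, against -0.64 to -0.15 over all the alternatives.

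Kcne4 encodes an accessory subunit that restrains voltage-gated potassium channels and is known from smooth muscle and heart. It stood at 92.9, 154 and 99.7 CPM in Young Sham and at 43.0, 52.8 and 51.9 CPM in Young TBI, so that the lowest sham library was far above the highest injured one. The means were 115 ± 33.2 and 49.2 ± 5.40 CPM (SD, n = 3 libraries each), and the level in sham was 2.35-fold that after injury. The log2 fold change was -1.23 ± 0.23, with an adjusted p of 0.467 in edgeR and of 0.000123 in DESeq2 over the 4 groups, where it was called in 12 of 12 fits with 1 library left out. Over the young libraries DESeq2 called it in 5 of 6 such fits and lost it without Young TBI 1 (adjusted p = 0.152 for Kcne4). Over 16 markers of smooth muscle and pericytes the median log2 fold change was -0.03.

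The next 4 genes were called by DESeq2 over the young libraries and are set together only for convenience. Egfl7, a matrix protein secreted by endothelial cells, stood at 155, 168 and 156 CPM in Young Sham and 125, 128 and 130.3 CPM in Young TBI (log2 fold change -0.32 ± 0.07). Amotl2, an angiomotin that binds YAP at endothelial junctions, stood at 195, 191 and 155 CPM against 116, 123 and 128 CPM (log2 fold change -0.56 ± 0.17). Hlx, a homeobox factor, stood at 23.4, 23.2 and 21.4 CPM against 13.9, 16.6 and 11.7 CPM (log2 fold change -0.67 ± 0.17). Epha2, a receptor for ephrin-A ligands, stood at 103, 112 and 98.0 CPM against 74.7, 70.6 and 86.6 CPM. In each case the groups did not overlap, and the adjusted p in edgeR was between 0.732 and 1. With 1 young library left out, DESeq2 called Amotl2 in 6 of 6 fits, Egfl7 in 5, Epha2 in 4 and Hlx in 0. Over 27 tight and adherens junction genes the median log2 fold change was -0.03, with 0 at an unadjusted p under 0.05. In every Young TBI library 2 lay above and 0 below, against 5.7% and 5.82% of all genes.

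Podxl went the other way. This sialomucin of endothelial and other lumen-lining cells stood at 379.6, 378 and 381 CPM in Young Sham and 434, 456 and 470.2 CPM in Young TBI, a log2 fold change of 0.26 ± 0.12. Pecam1, the pan-endothelial adhesion molecule CD31, stood at 303, 307 and 289 CPM against 321, 312 and 300 CPM, with a log2 fold change of 0.06 ± 0.09, Cdh5 (VE-cadherin) had -0.01 ± 0.08, Kdr -0.01 and Flt1 0.03. Over 26 blood endothelial genes the median was -0.00. At an unadjusted p under 0.05, 2 were higher and 3 lower (against 1.76% and 2.39% of all genes). The 95% interval lay within 1.5-fold either way for 23 of the 26. Lymphatic endothelial genes, 12 in all, had a median of 0.16, with 0 higher and 1 lower at that threshold (against the same shares). The 1 lower was Nts, a neuropeptide gene, at 2.002, 2.51 and 1.94 CPM against 0.969, 1.35 and 1.02 CPM.

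Pathways that share members with these genes were read as lists. YAP and TEAD, the effectors of the Hippo pathway, drive genes such as Ccn1 and Ccn2. Of 16 targets 4 lay below in every Young TBI library and 2 had an unadjusted p under 0.05 (Amotl2 and Ajuba, both lower), against 5.82% and 2.39% of all genes, with a list median of -0.08. Ccn1 stood at 199, 292 and 114 CPM against 86.8, 120.2 and 108 CPM, and Ccn2 at 212, 213 and 185 CPM against 152, 165 and 181 CPM. Of 24 genes of TGF-beta and BMP signalling, 6 lay below in every Young TBI library and 3 had an unadjusted p under 0.05, all lower, against the same shares. The list median was -0.07 and was 0.01 without Young TBI 2, and the summed level overlapped between the groups. These 3 were Id1 (156, 182 and 150.04 CPM against 148, 107 and 127 CPM), Id3 and Smad7, all genes that BMP signalling is known to induce. The ligands Tgfb1, Tgfb2 and Tgfb3 and the receptor Tgfbr1 had log2 fold changes of -0.02, 0.00, 0.09 and 0.07. In both lists no gene was called by edgeR.

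**Figure D4:**
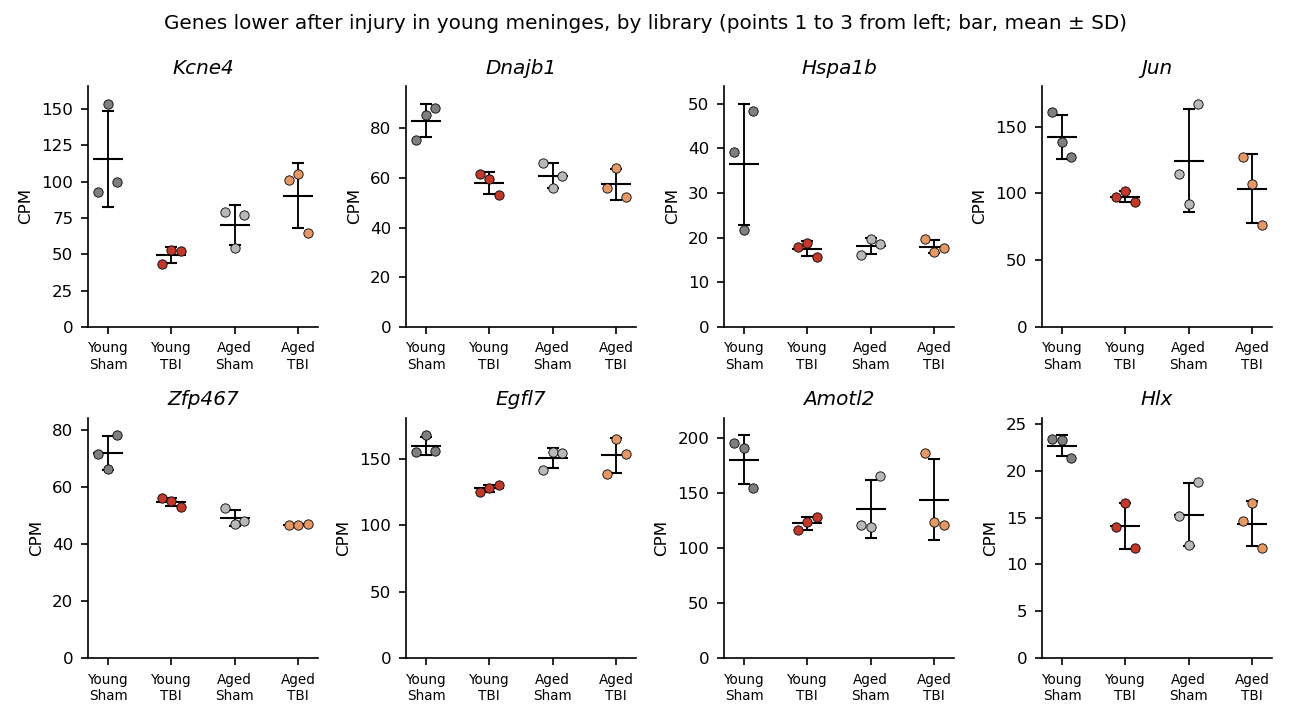
CPM (y axis, from 0, its own scale in each panel) of 8 genes with lower values after injury in young meninges, in the 12 libraries, with points for libraries 1 to 3 of each group from left to right and bars for mean ± SD. In every panel the 3 Young TBI libraries lie below the 3 Young Sham libraries, and the lowest sham library of Kcne4 is at 92.9 CPM against at most 52.8 CPM after injury.

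The remaining genes called by DESeq2 came from no single list. Zfp467, a zinc finger factor known for its part in the choice between fat and bone fate, stood at 71.5, 66.3 and 78.2 CPM in Young Sham and 56.1, 55.2 and 53.2 CPM in Young TBI, with a log2 fold change of -0.39 ± 0.07 and adjusted p of 0.0288 and 0.0682 in the 2 DESeq2 fits, which kept the call in 7 of 12 and 1 of 6 fits with 1 library left out. Dcc, the receptor for netrin-1, stood at 14.6, 18.7 and 18.5 CPM against 10.7, 10.8 and 9.44 CPM. Zfp36l1, which binds and destabilises mRNA, stood at 287, 330.4 and 304 CPM against 241, 247 and 256 CPM. Among genes that were higher, Neat1, the nuclear RNA that builds paraspeckles, stood at 716, 659 and 697 CPM against 864, 842 and 887 CPM, a log2 fold change of 0.32 ± 0.09. Synpo, an actin-associated protein, stood at 257, 240 and 271 CPM against 310.0, 325 and 292 CPM, and Shisal1 at 56.9, 72.9 and 84.2 CPM against 96.2, 124 and 103 CPM. Malat1, another abundant nuclear RNA, had a log2 fold change of 0.15 ± 0.06 with overlapping groups.

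Few immune genes were called by any fit. In several immune lists, though, the share of members above in every Young TBI library exceeded that of all genes. For T cell genes the share below did. Ccl12, a monocyte-attracting chemokine of mice, stood at 3.62, 4.48 and 3.28 CPM in Young Sham and 9.59, 7.65 and 8.17 CPM in Young TBI. Every injured library lay above every sham library, at 2.21-fold the sham level and a log2 fold change of 1.15 ± 0.22. DESeq2 called Ccl12 in both fits (adjusted p = 0.0288 and 0.027) and edgeR did not (adjusted p = 0.534), and with 1 library left out DESeq2 called it in 7 of 12 and 3 of 6 fits. Ccr1, a chemokine receptor of myeloid cells, stood at 6.39, 5.63 and 4.54 CPM against 11.4, 9.32 and 9.44 CPM, with an unadjusted p of 0.0205 in edgeR. The chemokines Ccl2, Ccl7, Ccl8 and Ccl11 had log2 fold changes of 0.31, 0.39, -0.04 and 0.21. Of 31 chemokine and receptor genes, 6 lay above in every Young TBI library and 2 had an unadjusted p under 0.05, both higher, against 5.7% and 1.76% of all genes.

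Complement proteins tag cells and debris for removal. C3ar1, the receptor for the C3a fragment on macrophages, stood at 24.9, 26.7 and 27.5 CPM in Young Sham and 33.9, 35.1 and 38.4 CPM in Young TBI, with an unadjusted edgeR p of 0.00782. Of 18 complement genes 4 lay above in every Young TBI library, C4b, C1qa, C1qc and C3ar1, against 5.7% of all genes, and the list median was 0.08. C3 had a log2 fold change of 0.01, C4b 0.16, C1qa 0.14 and C1qb 0.14. In the inflammasome, the sensor Nlrp3 stood at 4.86, 5.36 and 3.45 CPM against 6.59, 6.29 and 7.53 CPM, and the cytokine Il18 at 22.2, 23.9 and 22.7 CPM against 23.9, 26.6 and 29.2 CPM. Il6 was at most 0.168 CPM and Csf2 at most 0.136 CPM in any young library, too low to be tested.

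The resident macrophages of the brain borders are marked by scavenger and mannose receptors. Mrc1, Cd163, Lyve1 and Folr2 had log2 fold changes of 0.05, 0.00, 0.16 and -0.02, and the 18 markers had a median of 0.03, with 0 at an unadjusted p under 0.05 in either direction. Of mast cell genes, the tryptase Tpsab1 stood at 6.10, 7.40 and 6.31 CPM against 10.1, 9.48 and 9.06 CPM. The chymase and tryptase genes Cma1, Mcpt4 and Tpsb2 had log2 fold changes of 0.17, 0.17 and 0.12. Of 12 mast cell genes, 4 lay above and 1 below in every Young TBI library (against 5.7% and 5.82% of all genes). The list median was 0.17. T cell genes (21 tested) had a median of -0.09, B cell genes (18 tested) of -0.00 and MHC class II genes (10 tested) of -0.01, with 0 genes at an unadjusted p under 0.05 in each. Of the T cell genes, 1 lay above and 3 below in every Young TBI library, against the same shares. Of the B cell and MHC class II genes, 0 did in either direction. Neutrophil genes had a median of 0.25 that ran from -0.48 without Young TBI 1 to 1.11 without Young Sham 1, the libraries with the highest levels.

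The type I interferon response, a programme that cells mount to viral or self nucleic acids, had no gene past the unadjusted threshold. Ifit1 stood at 24.5, 31.2 and 34.5 CPM in Young Sham and 29.9, 30.4 and 37.8 CPM in Young TBI, and Ifit2, Ifit3 and Ifit3b had log2 fold changes of 0.19, 0.23 and 0.25 with overlapping groups. Over 32 interferon-response genes the median log2 fold change was 0.11, and 27 were above 0 (against 49% of all genes). Of the 32, 0 had an unadjusted p under 0.05 in either direction. In every Young TBI library 1 lay above, against 5.7% of all genes. For 22 of the 32 the 95% interval lay within 1.5-fold either way.

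Antibody genes lay lower on average in young injured libraries, with the highest levels in single sham libraries. Ighg2b stood at 17.2, 18.6 and 22.7 CPM in Young Sham and 9.59, 12.03 and 9.95 CPM in Young TBI, with an adjusted p of 0.00414 in DESeq2 over the young libraries, of 1 over the 4 groups and of 1 in edgeR. The variable segment Igkv3-4 stood at 3.62, 3.60 and 7.83 CPM against 0.581, 0.956 and 1.91 CPM. Igkc, the kappa constant gene, stood at 91.3, 165 and 144 CPM against 82.9, 97.9 and 71.5 CPM, with overlapping groups. Ighm had 198, 239 and 294 CPM against 192, 211 and 157 CPM. Plasma cell and immunoglobulin constant genes, 21 in all, had a median log2 fold change of -0.15. At an unadjusted p under 0.05, 0 were higher and 3 lower (Ighg2c, Igkc and Jchain), against 1.76% and 2.39% of all genes. In every Young TBI library 1 lay above and 1 below, against 5.7% and 5.82% of all genes. Ighg2c was far higher in Young Sham 2 than in any other young library, as given above. Antibody genes share sequence, and reads may have been split between segments.

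Mitochondrially encoded transcripts were higher as a sum in all 3 Young TBI libraries. They encode subunits of the respiratory chain and are copied from the mitochondrial genome. They took 1.42%, 1.44% and 1.32% of counts in the Young Sham libraries and 1.54%, 1.51% and 1.76% in those of Young TBI. The cytochrome oxidase gene mt-Co1 stood at 4204, 4035 and 3801 CPM against 4532, 4332 and 5235 CPM, with a log2 fold change of 0.23 ± 0.08. For mt-Nd1 the values were 1673, 1657 and 1610.0 CPM against 1853, 1811 and 2068 CPM. Of 12 such genes, 7 had an unadjusted p under 0.05, all higher, and 7 lay above in every Young TBI library, against 1.76% and 5.7% of all genes, and the median was 0.21. These genes are copied as 1 transcript per strand and are not independent of one another. Without Young TBI 3, the library with the fewest counts and the most muscle RNA, the median was 0.16. The nuclear genes of oxidative phosphorylation had a median of 0.02 over 26 genes, with 0 at an unadjusted p under 0.05. Cytosolic ribosomal protein genes had a median of 0.04 over 30 genes.

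Fibroblasts lay down the collagen matrix of the dura. Col1a1 stood at 6260, 5393 and 7234 CPM in Young Sham and 7108, 5957 and 6036 CPM in Young TBI. Its log2 fold change was 0.02 ± 0.12, with a 95% interval from -0.24 to 0.28. Col1a2 had 0.07 ± 0.10, Col3a1 0.10 ± 0.18 and Col5a1 0.08. Over 19 fibrillar and fibril-associated collagen genes the median was 0.02, with 0 at an unadjusted p under 0.05 and 0 with separate groups, and for 14 of them the 95% interval lay within 1.5-fold either way. This held for 9 of 13 non-fibrillar collagens, 16 of 23 basement membrane genes, 13 of 23 proteases and inhibitors and 18 of 19 dural fibroblast markers, beside 72.6% of genes at 1 CPM or more. Type VI and other non-fibrillar collagens (13 genes) had a median of 0.03, basement membrane genes (23) of -0.06, matrix glycoproteins and proteoglycans (37) of 0.06, and collagen processing genes (21) of 0.03. For the dural fibroblast markers Alpl, Foxc2, Fxyd5 and Mgp the log2 fold changes were 0.12, 0.15, 0.09 and 0.21, and the list median over 19 was 0.02. Arachnoid and pial genes, 20 in all, had a median of -0.09. At an unadjusted p under 0.05, 0 were higher and 2 lower (Lama1 and Krt18), against 1.76% and 2.39% of all genes.

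A list of 16 genes that the study named in meningeal cells of young mice 1 week after the same injury was also read here. Mgp, the calcification inhibitor matrix Gla protein, stood at 1478, 1280.4 and 1604 CPM in Young Sham and 1674, 1766 and 1607 CPM in Young TBI. The first 4 of the list, Ifnar1, Ifi203, Irf2bp2 and Irf5, had log2 fold changes of 0.02, 0.10, -0.25 and 0.09. Of the 16, 0 had an unadjusted p under 0.05, and 14 had a log2 fold change above 0 (against 49% of all genes). In every Young TBI library 4 lay above and 1 below (against 5.7% and 5.82% of all genes), and the median was 0.08. The 95% interval lay within 1.5-fold either way for all 16. The list came from other libraries, and the assays and times differ.

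**Figure D5:**
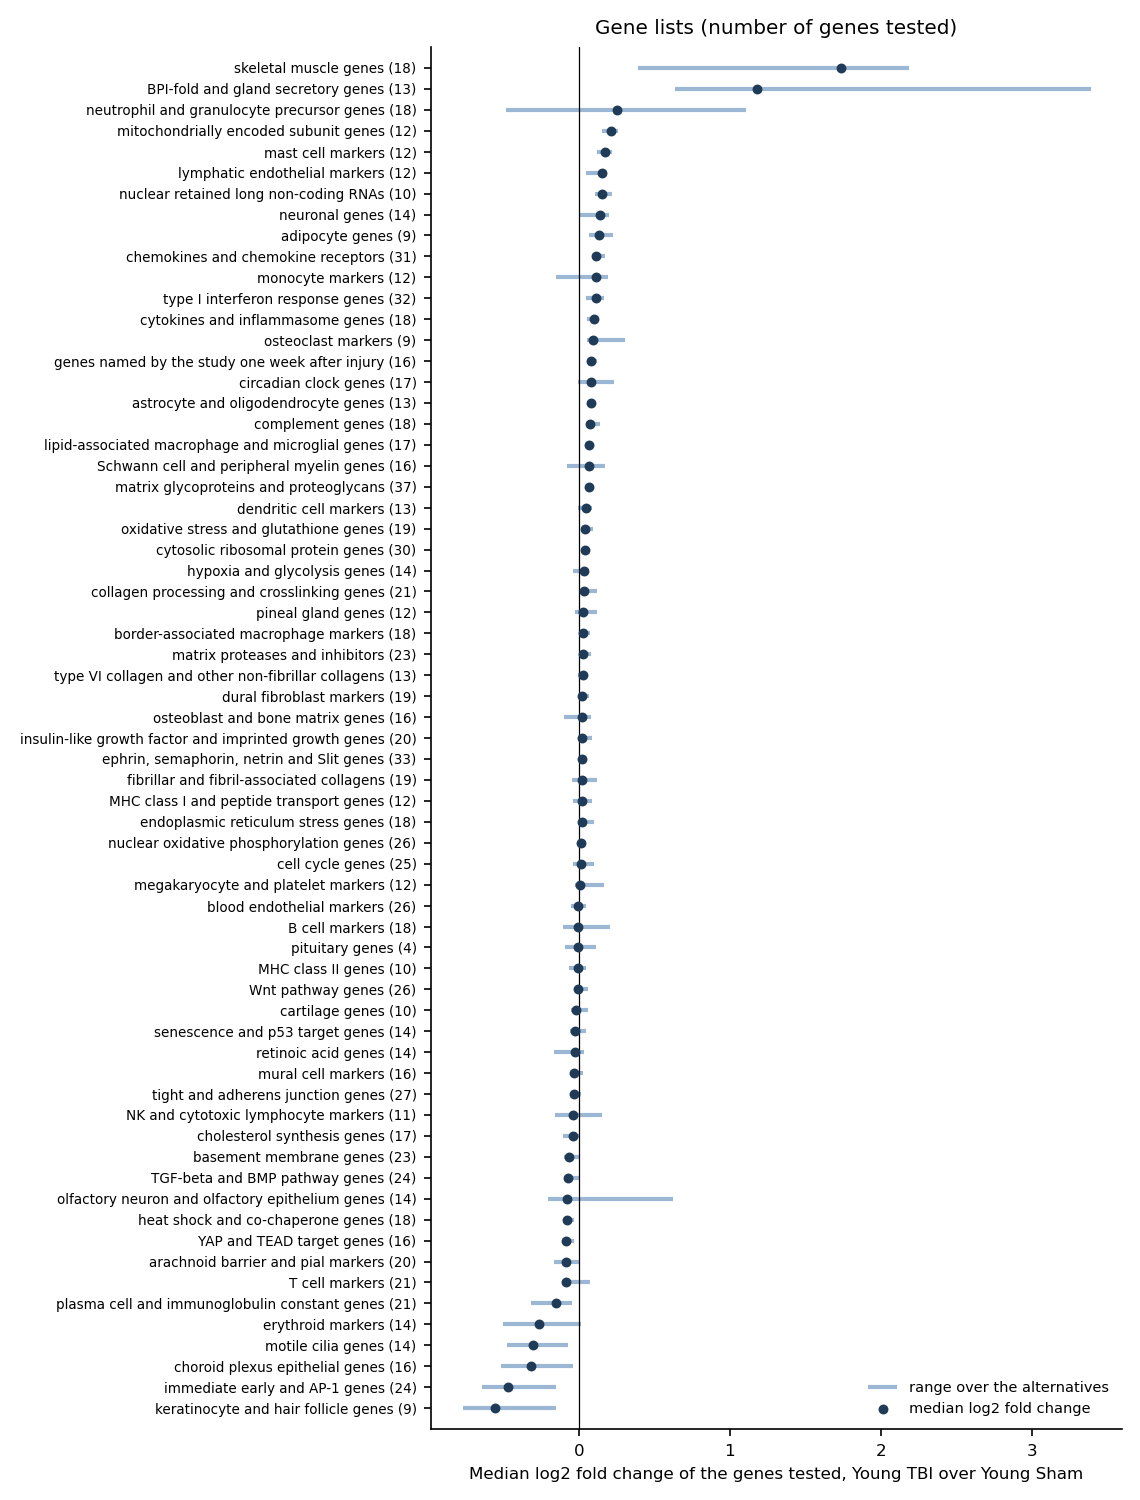
Median log2 fold change in Young TBI over Young Sham (x axis) of the genes tested in each of 65 gene lists, with the number tested in brackets, and the range of that median over the alternative settings as a bar. Most medians lie near 0. The skeletal muscle list (1.73) and the secretory list (1.18) have the highest medians and wide bars, and the keratinocyte list has the lowest (-0.55).

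Lists that mark tissues next to the meninges were read for their spread over libraries. Skeletal muscle genes had a median log2 fold change of 1.73 and of 0.39 without Young TBI 3. Of 18 tested, 0 had an unadjusted p under 0.05. In every Young TBI library 4 lay above (Myh4, Ckm, Mylpf and Atp2a1), against 5.7% of all genes. The fast myosin gene Myh4 stood at 1.24, 1.15 and 7.32 CPM in Young Sham and 10.3, 12.4 and 169 CPM in Young TBI. The basal keratinocyte genes Krt5 and Krt14 stood at 39.9 and 91.6 CPM in Young Sham 2 and at no more than 1.34 CPM in the other 5 young libraries. The keratinocyte list had a median of -0.55, and of -0.15 without Young Sham 2. Choroid plexus genes had a median of -0.32 over 16 genes, with 0 at an unadjusted p under 0.05. Pituitary, pineal, neuronal and glial lists had medians between -0.01 and 0.14. The part of these tissues in the differences of other genes was not tested.

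Whether the response to injury differed between young and aged meninges was tested as the difference of the 2 injury effects. In aged libraries edgeR called 301 genes for injury (1.65%), 71 higher (0.389%) and 230 lower (1.26%). For the difference between ages it called 0 genes (0%), with 1386 (7.6%) at an unadjusted p under 0.05, and DESeq2 called 4 (0.0111%), which were Kif1a, Plekha6, Kcne4 and Bpifb4. For Bpifb4 the log2 injury effect was 4.25 in young and 0.38 in aged libraries, a difference of 3.86 ± 0.72 (95% interval 2.30 to 5.42, adjusted p = 0.643 in edgeR and 0.00072 in DESeq2). For Kcne4 it was -1.23 in young and 0.37 in aged libraries, a difference of -1.60 ± 0.32 (adjusted p = 0.643 in edgeR and 0.00189 in DESeq2). The kinesin gene Kif1a stood at 101, 88.5 and 84.2 CPM against 91.4, 91.5 and 111 CPM in young libraries, and fell in aged libraries (adjusted p = 0.0802 in edgeR), with 83.5, 96.6 and 93.3 CPM in Aged Sham and 54.5, 62.0 and 54.2 CPM in Aged TBI. Plekha6, a scaffold gene, had 80.6, 85.0 and 75.6 CPM against 88.1, 91.2 and 99.9 CPM in young and 94.2, 84.2 and 89.6 CPM against 65.9, 74.0 and 69.1 CPM in aged libraries.

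Of the 301 genes called in aged libraries, 255 (84.7%) had the same sign of difference in young libraries, against 54.2% of all genes tested, and the 2 contrasts share no library. Choroid plexus and motile cilia genes were among the 301. Of 16 choroid plexus genes 9 were called lower in aged libraries, with a list median of -1.65 there and -0.32 in young libraries. Of 14 motile cilia genes tested 3 were called lower, with medians of -1.17 and -0.31. Over all genes the share called lower in aged libraries was 1.26%. The summed choroid plexus level overlapped between the young groups, and its part in the shared sign was not tested. None of the 301 was called in young libraries by edgeR.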

How the data were processed

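RNA of the dorsal meninges was sequenced from 12 pooled libraries, and the authors deposited a table of raw read counts per gene (HISAT2, SAMtools, HTSeq and mm10 by the submitters' processing notes). Tool versions, annotation release and strand setting are not given in the sources used here, so values of antisense, overlapping or near-identical genes (immunoglobulin segments, Hspa1a and Hspa1b) are uncertain. Libraries were grouped by their labels. Genes passing filterByExpr (minimum count 10) were fitted with edgeR 4.0.16 in R 4.3.3 as 4 group means over the 12 libraries, with TMM scaling, the quasi-likelihood test and Benjamini-Hochberg adjustment over all 18238 genes tested, called at an adjusted p under 0.1. SE and 95% intervals follow from that test. DESeq2 1.42.0 gave the alternatives. CPM were computed from the deposited counts. A floor of 3 counts equals 0.204 to 0.383 CPM in the young libraries and covers counting error only. The members and the 65 gene lists were chosen with earlier results of these data known. Counts over a list that holds called genes are therefore no independent support. Named were the called genes of at least 1 CPM and, for lists described, their called and first 4 tested members. Genes called by DESeq2 alone and other members were named after their values were seen. Gene names and coordinates were matched for 53275 of 55385 table entries (96.2%, GRCm38). Promoters came from RefSeq (GRCm38.p6), matched for 16 of the 23 named genes. Scripts were tested on simulated data.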

Additional observations from a re-analysis of the deposited data

How the results depend on the processing

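The number of genes called for injury in young mice was 1 with edgeR, and also 1 with RLE size factors, with library totals alone and with a minimum mean of 1 CPM. It was 3 with only the 6 young libraries, 8 without a filter, 0 at an adjusted p under 0.05, 8 with DESeq2 over the 4 groups and 22 with DESeq2 over the 6 young libraries. Leaving out 1 library at a time gave 0 to 2 genes with edgeR. Chosen after seeing the data, the same with DESeq2 over the 4 groups gave 5, 8 and 4 genes without Young Sham 1 to 3, 6, 4 and 3 without Young TBI 1 to 3, 13, 12 and 15 without Aged Sham 1 to 3 and 11, 9 and 11 without Aged TBI 1 to 3. DESeq2 over the young libraries gave 28, 19 and 35 without Young Sham 1 to 3 and 25, 19 and 21 without Young TBI 1 to 3. With the replicate number as a block the count was 1 over 12 libraries and 30 over the 6 young libraries. Same-numbered young libraries correlated at 0.07, 0.14 and 0.07, and differently numbered ones at -0.19 to 0.12. These few values cannot decide whether the numbers pair libraries. The methods of the study use no such block, so the numbers were not taken to pair them. For the difference between ages the count was 0 with edgeR, under the block and with any 1 library left out, 5 without a filter and 4 with DESeq2. With DESeq2 it was 19, 6 and 3 without Young Sham 1 to 3, 6, 42 and 3 without Young TBI 1 to 3, 169, 6 and 12 without Aged Sham 1 to 3 and 3, 48 and 17 without Aged TBI 1 to 3. The share of variance between groups was 21.2% to 30.3% over its alternatives. No log2 fold change of a named gene changed sign. Of named gene values under the alternatives, 673 kept their side of the threshold, 217 passed it only there, and 7 lost the call. The reference was the edgeR fit over the 12 libraries, which called Bpifb4 alone, so only Bpifb4 could lose a call here. Calls by DESeq2 that were lost with 1 library left out are not counted as lost. A missing adjusted p counted as not called. Among these 7 is the DESeq2 fit over the young libraries without Young TBI 2, which gave Bpifb4 no adjusted p. Depth limits the genes under about 1 CPM, and the cause of the difference between tools was not tested.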
